A study of Mus musculus with 2 samples.

Results

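Activated or memory-like CD4 T cells of the mouse lung are described here in a library from animals that inhaled diesel exhaust particles (DEP, soot from diesel engines) and in a library from unexposed controls. They were 35 of 9396 barcodes in the DEP library and 38 of 9691 barcodes in the control library, 73 of 19087 in all. A barcode (one droplet, usually one cell) was taken when it held a UMI of a CD3 chain and of Cd4, none of Cd8a, Cd8b1, Foxp3, Cd79a, Lef1 or Igfbp4, fewer than 4 UMIs of Ctla4, Ikzf2 and Tnfrsf4 summed, at most 2 of H2-Aa, under 1% of UMIs in S100a8 and S100a9, and at least 2 UMIs of S100a4, Icos, Cxcr6 and Cxcr3 summed. UMIs are unique molecular identifiers, tags that count single transcripts. These are measured values, so the levels of the genes named in the rule describe the choice and are no finding.

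The DEP library was labelled Ccr2-/- (KO), CD45.3+, with whole-body inhalation of 500 µg/m³ for 1 hour per day on 5 days per week over 2 weeks. The control library was labelled Ccr2-/- (KO), CD45.1+, with no treatment. The series text names both wild-type and Ccr2-deficient mice, and how many animals were pooled in a library is not stated. Cells carrying CD45, the surface marker of white blood cells, were sorted after enzyme digestion of the perfused lung and profiled by droplet 3′ RNA sequencing. With 1 library in a group, exposure, the CD45 label, animal and library cannot be told apart, and no test of exposure was possible.

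CD4 T cells recognise peptides on MHC class II and direct other immune cells through cytokines. Naive cells circulate through lymph nodes with the help of Ccr7, Klf2 and S1pr1. After activation they lose much of this equipment and take up integrins, S100 proteins and chemokine receptors, and part of them stay in tissues such as the lung, where they act early in allergic and antiviral responses. Icos is a costimulatory receptor, Cxcr6 a chemokine receptor of tissue-resident cells, Cxcr3 a receptor typical of type 1 helper cells, and S100a4 a calcium-binding protein of memory and migrating cells.

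The barcodes carried the T cell genes of their label in both libraries. Of 16 T cell identity genes, which include the CD3 chains, Lck, Lat and the receptor constant chains, none was at 0 in either library, and no barcode lacked Trac, Trbc1 and Trbc2 together. The median barcode had 5688 UMIs in DEP and 4485 UMIs in control. Mitochondrial genes took 3.13% of UMIs in DEP and 2.68% of UMIs in control. Both libraries shared 23 barcode sequences, and 0 of these were among the cells described.

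A set of 5 barcodes stood apart, all from the DEP library. They carried transcripts of lung macrophages beside those of T cells, with 155 to 371 UMIs of Lyz2 (lysozyme), 7 to 272 UMIs of Chil3 and 34 to 60 UMIs of Tyrobp each, and they held 12339 to 25032 UMIs in total. Summed over Lyz2, Chil3, Lpl and Ear2, these 5 had at least 372 UMIs. The other 30 DEP cells had at most 3 UMIs and the 38 control cells at most 2 UMIs of these 4 genes. A limit of 10 UMIs separated them, and it was set after the values were seen. A doublet score, used as an alternative, removed 4 of these 5 barcodes and 1 of the 38 control cells. Among the naive-like CD4 T cells defined below, the limit kept 240 of 240 DEP and 236 of 243 control cells. Below, "the 30 DEP cells" are those without macrophage RNA, and comparisons between the libraries are given with and without the 5. Without them, the median was 4799 UMIs and the mitochondrial share 2.93% in DEP. Single control barcodes also went against the label: 1 barcode with 4111 UMIs in total had 16 UMIs of Gata3, 8 of the IL-33 receptor Il1rl1 and 8 of Csf2 with 0 of Trac and 1 of Trbc1, and 1 with 3802 UMIs in total had 11 UMIs of the delta chain Trdc with 0 of Trac. Both met the rule and were kept.

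**Figure D1:**
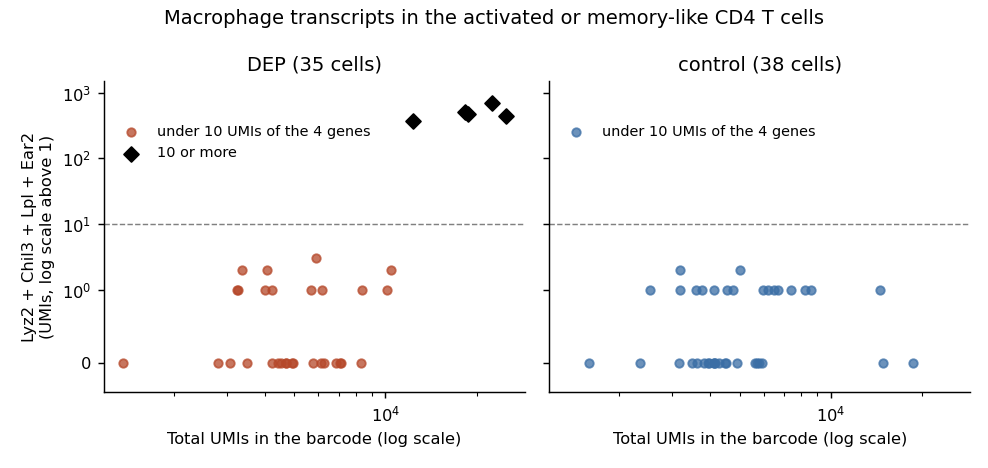
Total UMIs (x axis, log scale) against UMIs of 4 macrophage genes summed (y axis, log scale above 1), 1 point per barcode, in DEP (left) and control (right). Black diamonds are the 5 DEP barcodes at or above the dashed limit of 10 UMIs; all other points lie at 3 UMIs or below.

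Ccr2 was found in both libraries, at a higher level than in naive-like CD4 T cells. Ccr2, the receptor for monocyte-attracting chemokines and the gene targeted in both libraries by their labels, was found in 13 of 30 DEP cells and 15 of 38 control cells. It had 45 UMIs and 282 CPM (UMIs per 1000000 UMIs summed over the cells named) in DEP (exact Poisson interval 206 to 378) and 35 UMIs and 165 CPM in control (115 to 230.0), against 1.47 CPM in DEP and 0.804 CPM in control in the naive-like CD4 T cells defined below. The labels do not say which bases of Ccr2 were removed, and a 3′ tag outside them would still be counted, so these counts do not check the genotype. In the Foxp3-expressing CD4 T cells described below, Ccr2 had 228 CPM in DEP and 296 CPM in control. That is under the level of the cells described here in DEP and above it in control. In B cells 2.87% of DEP and 4.58% of control barcodes had a Ccr2 UMI. Cxcr6 was found in 11 of the 13 DEP and 13 of the 15 control cells with Ccr2, but Cxcr6 chose the cells, so this overlap is shaped by the rule and nothing is read from it.

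The share of these cells in the sorted lung leukocytes was close between libraries. They made up 0.372% of barcodes in DEP (exact 95% Clopper-Pearson interval 0.26% to 0.518%) and 0.392% in control (0.278% to 0.538%), a ratio of 0.95 with an interval from 0.583 to 1.54. With the 30 DEP cells alone the share was 0.319% and the ratio 0.814 (0.487 to 1.35). Among CD4 T cell barcodes without CD8 transcripts they were 7.19% of 487 in DEP and 6.53% of 582 in control, a ratio of 1.1. Naive-like CD4 T cells, defined by Lef1 or Igfbp4 and at most 1 UMI of the 4 selection genes, numbered 240 in DEP and 243 in control. The intervals of these ratios include 1, and intervals here cover counting error only, not the spread between animals.

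The rule drew these cells from a larger pool. In the DEP library 427 barcodes met the T cell, CD4, CD8, Foxp3 and regulatory limits, 53 of them had no UMI of Lef1 or Igfbp4, and 42 of those had the 2 selection UMIs. In the control library the same steps left 483, 78 and 56. A further 93 DEP and 76 control barcodes met every other criterion but held Lef1 or Igfbp4. The selection sum ran from 2 to 65 UMIs with a median of 9.0 in DEP and from 2 to 70 UMIs with a median of 6.5 in control. At the threshold, 4 DEP and 6 control members had exactly 2 UMIs, and 5 DEP and 9 control barcodes just outside had exactly 1. In the 4 and 6 members at the threshold Klf2 had 869 CPM in DEP and 1759 CPM in control, and in the 5 and 9 barcodes outside it had 1855 CPM and 722 CPM.

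The choice rested on 4 genes, and S100a4 gave most of the UMIs. Among the 30 DEP cells S100a4 made up 56.3% of the selection UMIs, Icos 23.1%, Cxcr6 15.9% and Cxcr3 4.63%. Among the 38 control cells the shares were 53.4%, 27.6%, 13.7% and 5.41%. All 4 genes were found together in 4 DEP and 4 control cells, and a single one in 5 DEP and 9 control cells. The promoters of S100a4, which gave most of the selection UMIs, and of Cxcr6, the chemokine receptor among the selection genes with the most UMIs, are shown with 250 bases before and 50 bases after the gene start from RefSeq on build GRCm38.p6, both on the plus strand. They lie at chr3:90603520-90603819 and chr9:123806227-123806526. Ccl5, which returns below, is named only.
S100a4: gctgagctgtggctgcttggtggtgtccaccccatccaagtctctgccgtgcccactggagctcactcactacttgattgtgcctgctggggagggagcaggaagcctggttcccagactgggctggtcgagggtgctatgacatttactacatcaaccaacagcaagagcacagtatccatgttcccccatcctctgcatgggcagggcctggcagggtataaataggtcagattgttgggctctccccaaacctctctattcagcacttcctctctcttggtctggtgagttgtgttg
Cxcr6: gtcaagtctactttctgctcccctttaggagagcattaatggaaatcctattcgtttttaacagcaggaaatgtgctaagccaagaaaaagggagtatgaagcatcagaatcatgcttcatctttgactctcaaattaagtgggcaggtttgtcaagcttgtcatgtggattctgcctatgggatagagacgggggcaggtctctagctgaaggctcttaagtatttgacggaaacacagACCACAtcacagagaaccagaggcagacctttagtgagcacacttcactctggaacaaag
Capitals mark ACCACA, the reverse strand of the RUNX motif TGTGGT, which begins 10 bases before the Cxcr6 start. Motifs were searched on both strands as letters: TGTGGT for RUNX factors was found in 16.8% of 32851 promoters of the same length, AGGTGTGA for T-box factors in 1.28%, TGANTCA for AP-1 in 7.81%, GGGNNTTCC for NF-kB in 5.82%, AGATAA for GATA factors in 11.2% and CCNCNCCC for KLF factors in 49.5%. The S100a4 window held none of the 6 letter strings and the Cxcr6 window held only the RUNX string. A match describes letters and shows no binding.

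Per cell, S100a4 ran from 0 to 54 UMIs with a median of 1.0 in the 30 DEP cells, and from 0 to 58 UMIs with a median of 1.0 in the 38 control cells. It was absent from many cells and very high in a few. The summed level was 1374 CPM in DEP (exact Poisson interval 1198 to 1568) and 978 CPM in control (849 to 1121), a log2 ratio of 0.49 that lay inside 1.5-fold. Icos ran from 0 to 8 UMIs in DEP and 0 to 12 UMIs in control, both with a median of 2.0, and had 565 and 506 CPM in DEP and control. It was the most widely detected of the 4 in each library, with a UMI in 26 of 30 DEP cells and 27 of 38 control cells. Cxcr6 had 389 CPM in DEP and 250.4 CPM in control, with 20 cells of each library positive, and Cxcr3 had 113 CPM in DEP and 99.2 CPM in control. Cd4 itself had 269.7 CPM in DEP and 326 CPM in control. Per cell, Cxcr6 ran from 0 to 8 UMIs in DEP and 0 to 7 in control, Cxcr3 from 0 to 4 and 0 to 5, and Cd4 from 1 to 2 in DEP and 1 to 5 in control. The ranges of the 4 selection genes overlapped, and the upper end for Cd4 was lower in DEP.

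**Figure D2:**
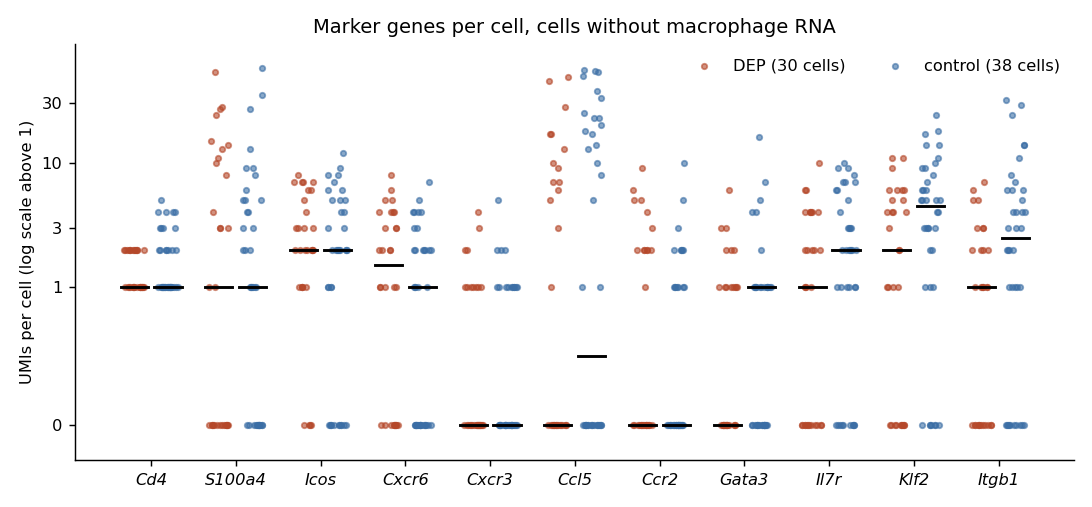
UMIs per cell (y axis, log scale above 1) for 11 genes, in the 30 DEP cells (left of each pair) and the 38 control cells (right of each pair); black bars are medians. S100a4 and Ccl5 spread from 0 to over 40 UMIs in both libraries, while Klf2 has a median of 2.0 in DEP and 4.5 in control.

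The shares of B cells with these transcripts served as a background. Whether they come from free RNA in the droplets was not tested. In B cells (1815 in DEP with a median of 3696 UMIs, 2007 in control with a median of 3392 UMIs) S100a4 was found in 5.73% and 6.63%, Icos in 0.441% and 1.2%, and Cxcr6 in 0.275% and 0.548% of DEP and control cells. The activated or memory-like cells held S100a4 in 53.3% of the 30 DEP cells and 65.8% of the control cells, and Cxcr6 in 66.7% and 52.6%, all above the shares in B cells. Thinned to 1000 UMIs per cell, S100a4 was seen in 50% of the DEP cells and 39.5% of the control cells, an order opposite to the unthinned one, so no order is read from these shares.

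Set against naive-like CD4 T cells of the same library, the cells had higher levels of effector genes such as Nkg7, Ccl5 and Il2rb and lower levels of the lymph node homing genes Ccr7 and S1pr1 in both libraries. Macrophage-containing barcodes were left out on both sides, which left 240 DEP and 236 control naive-like cells. A gene counted as called when its summed count was at least 20, its ratio lay beyond 1.5-fold and its 95% counting interval excluded 1. By this rule of size 15.5% of 5894 genes were higher and 4.26% lower in DEP, and 17.8% of 6088 genes were higher and 5.37% lower in control, with 498 higher and 120 lower in both. Of the 5574 genes counted in both libraries, these are 8.93% and 2.15%. Ribosomal genes took 29.8% of UMIs in the activated or memory-like cells and 42.2% in the naive-like cells of DEP. In control they took 26.3%, against 37% in all 243 naive-like cells. CPM here is over all UMIs, and the part of this difference in the shares called was not tested. The cells were chosen by correlated genes, so these differences describe them and are not tested.

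Genes of effector cells were among the highest ranked. Nkg7, a granule membrane protein of cytotoxic and type 1 cells, had 703 CPM in the activated or memory-like cells and 9.57 CPM in the naive-like cells of DEP, and 917 CPM and 36.2 CPM in control. Ccl5, a chemokine that draws T cells and monocytes, had 1361 CPM and 78.8 CPM in DEP, and 2192 CPM and 214 CPM in control. Il2rb, the beta chain of the IL-2 and IL-15 receptors, had 639.8 and 22.8 CPM in DEP and 676 and 51.5 CPM in control. The list went on with Hopx, Lgals1, Rgs1, Bhlhe40, Itgb1, Rora, AW112010, Bcl2a1b, Maf, S100a10, Id2 and Gng2, with log2 ratios of 2.27 to 4.30 in DEP and 2.31 to 4.63 in control. Bhlhe40, Rgs1 and Id2 are known in resident and memory T cells, and Rora and Maf are transcription factors of effector helper cells.

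Genes of lymph node homing and the naive state were lower. Ccr7 had 81.5 CPM in the activated or memory-like cells and 772 CPM in the naive-like cells of DEP, and 89.8 CPM and 932 CPM in control. Satb1, a chromatin organiser of the T cell lineage, had 546 and 1279 CPM in DEP and 482 and 1384 CPM in control. Actn1, Kif1b, Ifngr2 and Rflnb had log2 ratios of -2.21 to -1.79 in DEP and -2.86 to -2.21 in control. Dapl1, St8sia6, Tubb2a, Zfp281, Osbpl9, Dirc2, Ift80 and Pecam1 also met the ranking rule but had at most 3 UMIs in the DEP cells. S1pr1, the receptor for exit from tissue into lymph, had log2 ratios of -1.18 in DEP and -1.31 in control. Klf2 was called lower in DEP only (-1.07, against -0.30 in control), and whether these ratios differ was not tested.

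By list, 15 of 20 naive and recirculation genes were called lower and 0 higher in both libraries. Of 23 memory and activation genes counted, 19 were higher and 1 lower, and of 14 tissue residence genes 9 were higher and 0 lower. Type 1 helper genes were higher for 8 of 10, S100 genes for 5 of 7, cytotoxic granule genes for 5 of 8 and integrin and adhesion genes for 8 of 15, where 1 was lower. No heat shock gene of 11 counted was called in both libraries. All list counts are of genes called in both libraries, beside 8.93% higher and 2.15% lower among all 5574 genes counted in both, and some of the lists share genes with the choice of cells.

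**Figure D3:**
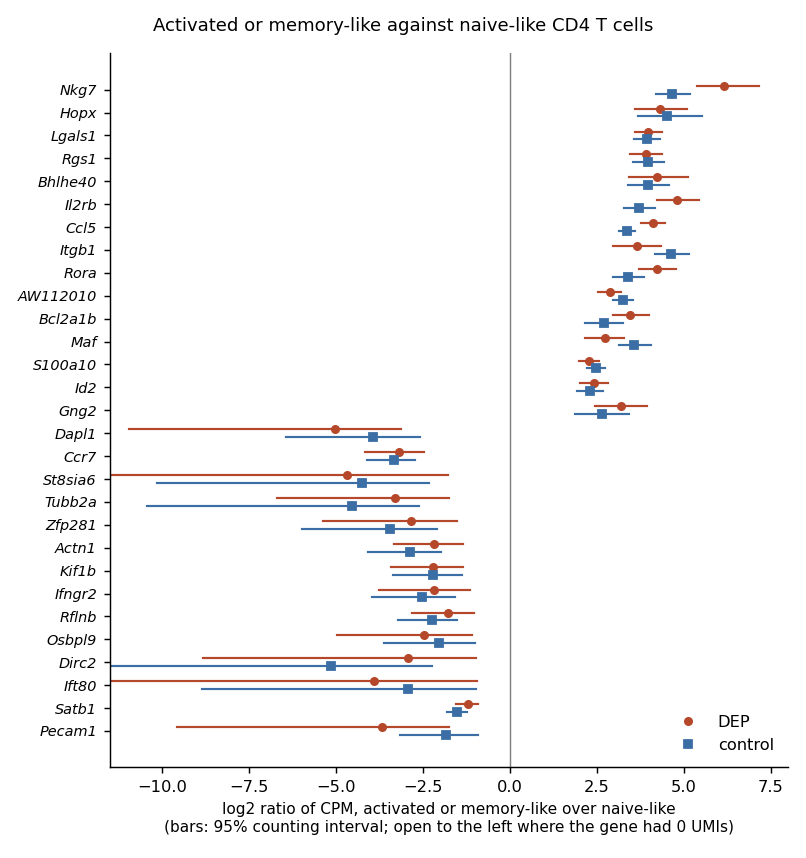
Log2 ratio of CPM in activated or memory-like over naive-like CD4 T cells (x axis) for the 15 higher and 14 of the 15 lower genes by the ranking rule, in DEP (circles, upper) and control (squares, lower), both without macrophage RNA; bars are 95% counting intervals. The ranking used the bound nearer to 0 of both libraries, so it fixed that every gene shown lies on the same side in both.

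Foxp3-expressing CD4 T cells, the regulatory cells of the same libraries, gave a second comparison. Without macrophage RNA they numbered 19 in DEP and 30 in control. By the rule of size the activated or memory-like cells were higher than Foxp3 cells for 7.87% and lower for 7.41% of 1956 genes in DEP, and higher for 7.53% and lower for 5.54% of 2868 genes in control, with 52 higher and 42 lower in both, which are 2.73% and 2.21% of the 1902 genes counted in both. Foxp3 and limits on regulatory genes defined the cells, so these are descriptions with no test.

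Effector genes were again on the higher side. Nkg7 had 703 CPM in the activated or memory-like cells and 16.9 CPM in Foxp3 cells of DEP, and 917 and 29 CPM in control. Ccl5 had log2 ratios of 2.98 in DEP and 3.95 in control, Bhlhe40 1.46 in each, Il2rb 1.10 and 0.86, and the LFA-1 chains Itgal 1.18 and 1.45 and Itgb2 1.61 and 0.88. Ccr7 was lower at -3.33 in DEP and -3.06 in control, and Cd27, a costimulatory receptor, at -1.35 and -1.56. S100a4, which chose the cells, was not higher than in Foxp3 cells, with 1374 CPM and 1622 CPM in DEP and 978 CPM and 3171 CPM in control. Of 9 regulatory genes counted, 7 were lower in both libraries, and of 5 cytotoxic granule genes 3 were higher in both.

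Genes of type 1 and type 2 helper cells were both found, and the signature cytokines of type 2 and type 17 cells mostly were not. Tbx21, the master factor of type 1 helper cells, was found in 6 of 30 DEP cells and 8 of 38 control cells, and Ifng, their signature cytokine, in 9 DEP and 12 control cells. In B cells Ifng was found in 0.661% of DEP and 1.3% of control cells. Gata3, the type 2 factor, was found in 14 DEP and 20 control cells at 163 CPM in DEP and 246 CPM in control, but the type 2 cytokines Il5 and Il13 and the receptor Ccr8 were at 0 in both libraries. With 3 cells as the limit that a count of 0 allows, up to 10% of DEP cells and 7.89% of control cells could hold a UMI of them, which limits cells with a UMI and not cells that express the gene. Il4 had 10 UMIs in 5 DEP cells and 7 UMIs in 2 control cells. Il17a and Il17f, the type 17 cytokines, were at 0 in both libraries. Cxcr5 and Il21, genes of follicular helper cells, had 0 and 3 UMIs in DEP and 1 and 0 UMIs in control.

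Of the residence genes, Rgs1 and Cd69 were found and Itgae was not. Rgs1, a brake on chemokine signalling, was found in 22 DEP and 23 control cells at 696 and 728 CPM. Cd69, which keeps cells from leaving tissue by opposing S1pr1, had 269.7 CPM in 15 DEP cells and 302 CPM in 25 control cells, and B cells held it in 61.5% of DEP and 58.1% of control barcodes. Itgae, which encodes CD103 of epithelial resident cells, was at 0 in both libraries. Csf2, a growth factor for macrophages and granulocytes, had 2 UMIs in 2 DEP cells and 13 UMIs in 3 control cells, of which 8 UMIs were in 1 cell.

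High S100a4 and high Ccl5 met in 1 DEP cell, and in control in 7 of the 15 cells with S100a4. Counting a gene as present at 3 UMIs or more, S100a4 without Ccl5 was found in 13 of 30 DEP cells and 8 of 38 control cells, Ccl5 without S100a4 in 12 DEP and 10 control cells, both in 1 DEP cell and 7 control cells, and neither in 4 DEP and 13 control cells. At 10 UMIs of S100a4 or more, 0 of 9 DEP cells and 2 of 4 control cells also had Ccl5 at 3 UMIs or more. Median depth was 4219 UMIs in the 13 and 6158.5 UMIs in the 12 DEP cells, and 3953 UMIs in the 8 and 5616.5 UMIs in the 10 control cells. S100a4 is a selection gene, and a cell low in it entered only through Icos, Cxcr6 or Cxcr3, so the classes draw on values the rule used. They were also drawn after the values were seen, and are given as a description with no test.

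**Figure D4:**
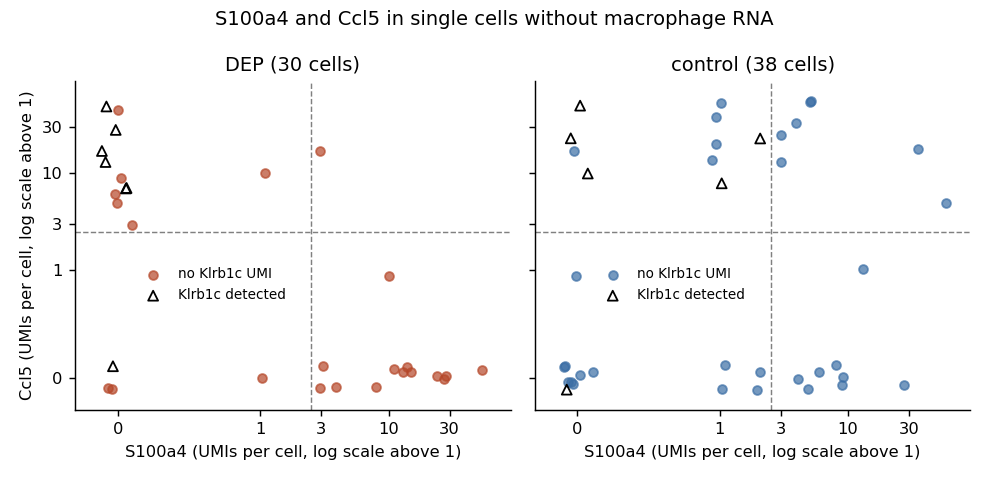
S100a4 (x axis) against Ccl5 (y axis) in UMIs per cell, log scale above 1, 1 point per cell with a small shift to part equal values, in the 30 DEP cells (left) and the 38 control cells (right). Dashed lines separate cells with 3 UMIs or more from the rest; triangles are cells with a UMI of Klrb1c. The upper right field holds 1 DEP cell and 7 control cells, and no triangle lies right of the vertical line.

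Several genes differed in level between the S100a4 and the Ccl5 cells. In the cells with S100a4 and no Ccl5, S100a6 had 2327 CPM in DEP and 2324 CPM in control, against 586 and 556 CPM in the cells with Ccl5 and no S100a4. By detection it was close, in 12 of 13 against 11 of 12 DEP cells and 8 of 8 against 8 of 10 control cells. Of the 154 DEP UMIs of S100a6 in the S100a4 cells, 58 lay in 1 cell. Vim, a filament protein of motile cells, had 1617 CPM in DEP and 373 CPM in control among the S100a4 cells, and 27.9 CPM in DEP and 85.5 CPM in control among the Ccl5 cells. Capg, an actin-capping protein, had 453 CPM in DEP and 172 CPM in control among S100a4 cells and was at 0 in the Ccl5 cells of both. Gata3 had 242 CPM in DEP and 746 CPM in control among S100a4 cells, and 41.9 and 114 CPM among Ccl5 cells. Ccr4, a receptor of type 2 and skin- or lung-homing cells, had 212 and 143 CPM in the S100a4 cells, against 27.9 and 0 CPM. Il4, a signature cytokine of type 2 cells, went the other way, with 0 UMIs in the S100a4 cells of both libraries, and with 10 UMIs in 5 of 12 DEP Ccl5 cells and 6 UMIs in 1 of 10 control Ccl5 cells. Of the 26 control UMIs of Gata3 in the S100a4 cells, 16 came from the barcode without Trac described above and 7 from 1 other cell. By detection, Gata3 was found in 5 of 8 control S100a4 cells and 7 of 10 control Ccl5 cells. In DEP it was found in 7 of 13 S100a4 cells and 2 of 12 Ccl5 cells. The 7 control cells with both S100a4 and Ccl5 together held genes of each side. They had 1394 CPM of Vim in 4 cells, 2768 CPM of Lgals1 in 6 cells and 1132 CPM of Nkg7 in 7 cells. These sums rest on a few large cells. Of 49490 UMIs in all, 14497 and 14850 lay in single cells, both cycling by the limit given below. Of 137 Lgals1 UMIs, 56 and 39 lay in single cells.

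Nkg7, Ctsw and Ifng were among the genes with more transcripts in the Ccl5 cells. Nkg7 had 1312 CPM in DEP and 1525 CPM in control among them, against 181 and 717 CPM in the S100a4 cells. Ctsw, a protease of cytotoxic lymphocytes, had 461 and 313 CPM, against 45.3 and 28.7 CPM. Ifng was found in 7 of the 12 DEP cells and 7 of the 10 control cells, against 1 of 13 and 1 of 8 S100a4 cells. Cxcr3, a selection gene, had 168 CPM in DEP Ccl5 cells and 75.6 CPM in DEP S100a4 cells, but 85.5 and 86.1 CPM in control. Klrb1c, the NK1.1 receptor of NK and invariant T cells, was found in 6 and 5 Ccl5 cells and in 0 of the S100a4 cells of both libraries. Xcl1, a chemokine of activated lymphocytes, was found in 8 and 3 Ccl5 cells, against 0 and 1.

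The cells with neither gene had more Klf2 transcripts than the S100a4 cells and the Ccl5 cells. Klf2 had 1299 CPM in the 4 DEP cells and 1680.4 CPM in the 13 control cells. It had 302 and 516 CPM in the S100a4 cells, and 628 and 598 CPM in the Ccl5 cells. The cells with both genes had 1066 CPM of Klf2 in DEP, from 1 cell, and 1172 CPM in control. Tcf7, a factor of naive and central memory cells, had 413 and 893 CPM in the cells with neither gene. In the S100a4 cells it had 393 and 402 CPM, so the DEP values were close, and in the Ccl5 cells 69.8 and 85.5 CPM. Il7r, the survival receptor of resting T cells, was found in 3 of 4 DEP cells and 12 of 13 control cells. The DEP class rests on 4 cells with 16932 UMIs in all.

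Between the libraries, the comparison of all 35 DEP with 38 control cells changed with the 5 macrophage-containing barcodes. Of 3444 genes counted, 327 (9.49%) were called higher and 313 (9.09%) lower in DEP. Without the 5, 72 of 2733 genes (2.63%) were higher and 188 (6.88%) lower, with 31 higher and 151 lower calls shared. With TMM scaling factors this split was 103 higher and 143 lower, and the median over all genes was 0.011. Monocyte and macrophage genes had a median log2 ratio of 3.83 with the 5 barcodes, 12 of 14 called higher, and of -0.19 without them. NRF2 and oxidative stress genes, the antioxidant response, had a median of 1.36 with 11 of 14 called higher, and 0.49 with 2 of 11 called higher without them. The median over all genes counted was -0.081 with and -0.087 without the 5.

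The genes ranked highest with the 5 barcodes included were Lgals3, Sat1, Atp6v0b, Cd44, Rnh1, Fth1, Ptms, Lamp1, Ucp2, Capg, Vim and Taldo1. Cd44, the classic surface marker of activated T cells, had 691 CPM in the 35 DEP cells and 184 CPM in control, a log2 ratio of 1.89. Without the 5 it had 201 CPM in DEP, a log2 ratio of 0.13 with an interval of -0.60 to 0.84. Lgals3, a galectin abundant in macrophages, had a log2 ratio of 3.09 with them and -0.56 without. The lysosomal Lamp1 had 1.67 and -0.29, and the ferritin chain Fth1 had 1.46 and 0.49. Tnf had 62 UMIs in the 35 DEP cells and 5 UMIs in the 30, against 2 UMIs in control. None of Cd44, Lgals3, Lamp1, Fth1 and Tnf was called higher without the 5 barcodes. Other genes of the list kept their call without the 5. These were Sat1 (log2 ratio 1.22), Atp6v0b (1.32), Rnh1 (1.84), Capg (1.19) and Ucp2 (0.68). The rest, Ptms (0.013), Vim (0.45) and Taldo1 (0.27), were not called without the 5.

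Several integrins were called lower in the 30 DEP cells. Itgb1, the beta chain of the VLA integrins that hold T cells to matrix and vessel wall, had 47 UMIs in 18 of 30 DEP cells and 200 UMIs in 28 of 38 control cells. Its level was 295 CPM in DEP (217 to 392) and 945 CPM in control (818 to 1085), a log2 ratio of -1.67 (-2.17 to -1.22). Itga4, its alpha-4 partner in VLA-4, had 13 UMIs in 7 DEP cells and 84 UMIs in 22 control cells, a log2 ratio of -2.24 (-3.25 to -1.43). Itgal, the alpha chain of LFA-1, had 314 CPM in DEP and 543 CPM in control, a log2 ratio of -0.78. Of 14 integrin and adhesion genes counted, 4 were called lower and 0 higher, beside 6.88% lower and 2.63% higher among all genes counted, with a median of -0.20. The 3 named here stayed called lower under each of 10 alternatives run on the 30 and 38 cells, with Itgb1 between -1.82 and -0.88. They were called lower with all 35 DEP cells too, at -1.95 for Itga4, -1.42 for Itgb1 and -0.82 for Itgal. When the rule was applied to counts thinned to 1000 UMIs, it took 15 DEP and 19 control barcodes, of which 5 and 7 are among those described, and Itgb1 was called lower while Itga4, at -0.48, was not called. In naive-like cells the same ratio of DEP over control was -0.67 for Itgb1, also called lower, and -0.47 for Itga4, not called. In Foxp3 cells it was -0.12 and -0.099, and whether the ratios differ between these populations was not tested.

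Hspa8 and a number of other genes were called lower as well. Hspa8, the constitutive heat shock 70 chaperone, had 828 CPM in DEP and 1602 CPM in control, a log2 ratio of -0.95, and was found in 30 of 30 DEP cells and 36 of 38 control cells; with all 35 DEP cells it had -0.56 and was not called. Of 10 heat shock genes 4 were called lower, beside 6.88% of all genes, and 0 higher, with a median of -0.38, but Hspa1b and Hspa1a had 76.3% and 68.2% of their control UMIs in 1 cell. Bhlhe40 had 263 CPM in DEP and 454 CPM in control (log2 ratio -0.77), and Tnfrsf1b, the second receptor for TNF, had 62.7 and 189 CPM (log2 ratio -1.54). Nr4a2 and Nr4a3, genes induced by the T cell receptor, had log2 ratios of -2.04 and -1.41, with 37.1% of the control UMIs of Nr4a2 in 1 cell. Their list of 12 receptor response genes had 2 called lower, beside 6.88% of all genes, and 0 higher, with a median of -0.24. Klf2 had 577 CPM in DEP and 1011 CPM in control (log2 ratio -0.80), and Ccl5 had 1361 CPM and 2192 CPM (log2 ratio -0.69). Samhd1, Trib2, Zyx, Ssrp1, Ywhah and Mgea5 completed the 12 lowest, at log2 ratios of -1.55 to -1.37. With the rule applied to thinned counts Hspa8 had 0.27, Tnfrsf1b 0.11, Zyx 0.20 and Samhd1 0.028. In naive-like cells Bhlhe40 had a log2 ratio of -1.03 and Tnfrsf1b of -0.65, both called lower. Not called there were Hspa8 (-0.058), Klf2 (-0.037), Samhd1 (-0.13), Trib2 (0.13), Ssrp1 (0.24), Zyx (-0.64), Ywhah (-0.087) and Mgea5 (-0.33). Hspa1a (1.23) and Hspa1b (1.62) were called higher there. In Foxp3 cells Hspa8 (-0.23), Bhlhe40 (-0.77), Tnfrsf1b (-0.14) and Klf2 (0.16) were not called. Whether the ratios differ between populations was not tested.

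Ccl5 was carried by 14 DEP and 19 control cells, and by 13 and 17 at 3 UMIs or more. Its highest cell held 49 UMIs in DEP and 56 UMIs in control. In naive-like cells of the same libraries Ccl5 had a log2 ratio of -1.44, called lower, and in Foxp3 cells of 0.28, not called. In B cells Ccl5 was found in 10.7% of DEP and 13.6% of control barcodes. With the rule applied to thinned counts the log2 ratio of Ccl5 was 0.29. The part of free RNA in the difference was not tested.

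**Figure D5:**
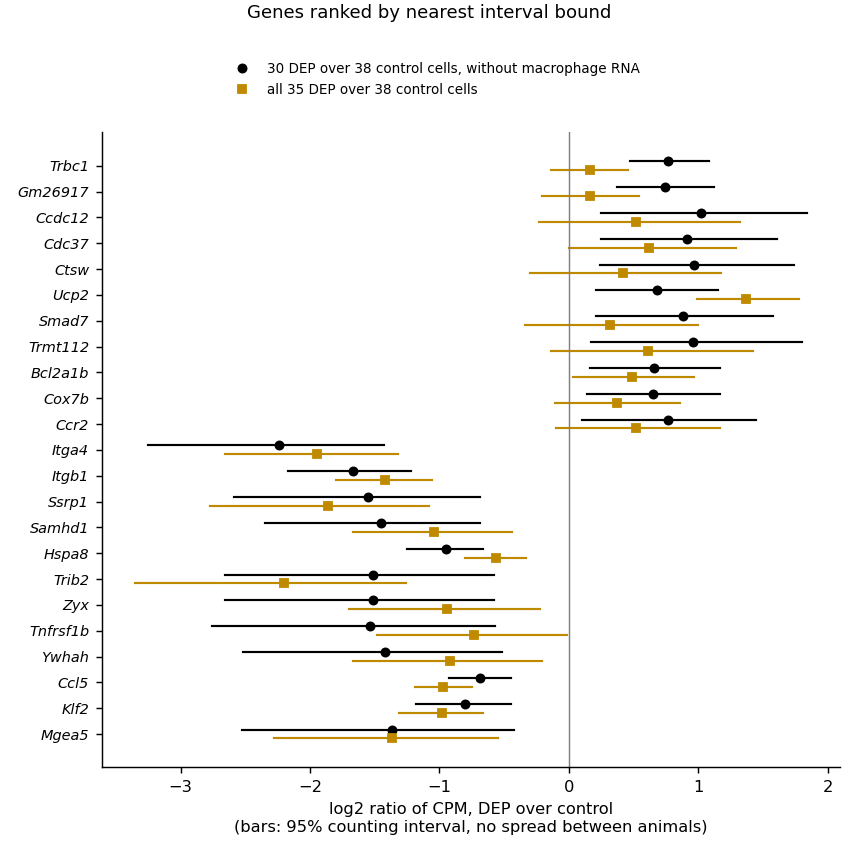
Log2 ratio of CPM, DEP over control (x axis), for 11 of the 12 highest and the 12 lowest genes by the ranking rule, without macrophage RNA (black circles, 30 and 38 cells) and with all 35 DEP cells (yellow squares); bars are 95% counting intervals, which hold no spread between animals. Itga4, Itgb1 and Ccl5 lie left of 0 in both sets, while of the 11 higher genes only Cdc37, Ucp2 and Bcl2a1b have intervals above 0 when all 35 are used.

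Fewer genes were called higher in the 30 DEP cells. Trbc1, a constant chain of the T cell receptor, had 1292 CPM in DEP and 756 CPM in control, a log2 ratio of 0.77 (0.47 to 1.08), and was found in 18 and 21 cells. Ctsw had 251 CPM in DEP and 128 CPM in control, a log2 ratio of 0.97. Ccr2 had a log2 ratio of 0.77 (0.10 to 1.45), and kept its call under 5 of 10 alternatives, with a range from 0.26 to 1.53. Ucp2, a mitochondrial carrier, and Smad7, an inhibitor of TGF-beta signalling, had log2 ratios of 0.68 and 0.88. Ccdc12, Cdc37, Trmt112, Bcl2a1b, Cox7b and the transcript Gm26917 were also among the 12, at 0.65 to 1.02. None of the 12 kept its call under all 10 alternatives. With all 35 DEP cells 2 of the genes named here, Cdc37 (0.62) and Ucp2 (1.37), were called higher, and Trbc1 (0.16), Ctsw (0.42), Smad7 (0.32) and Ccr2 (0.52) were not. Of the 12, only Ucp2 was then among the 12 highest. The ratio of DEP over control for Trbc1 was 0.41 in naive-like cells, not called, and 1.02 in Foxp3 cells, called higher. Ccdc12 was called higher in naive-like cells (0.59) and Trmt112 in Foxp3 cells (1.23). The rest of the 12 were called in neither population, and whether the ratios differ between populations was not tested.

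Lists on the higher side held few called genes. Chemokine receptors had 3 of 6 called higher, beside 2.63% of all genes, and 0 lower, Ccr4 with 16 UMIs in 8 DEP cells and 6 UMIs in 3 control cells (log2 ratio 1.75), Ccr2 and the selection gene Cxcr6. Without cycling cells 0 of 5 were called. S100 genes had 1 of 7 called, S100a11 at 803 CPM in DEP and 468 CPM in control (log2 ratio 0.78). Of NRF2 and oxidative stress genes, Sod2, the mitochondrial superoxide dismutase, had 20 UMIs in DEP and 10 UMIs in control (log2 ratio 1.37), and Gpx1, a glutathione peroxidase, 38 and 27 UMIs (log2 ratio 0.89). Nqo1 and Hmox1, the standard reporters of that pathway, were at 0 in both libraries, as was Cyp1b1 of the aryl hydrocarbon receptor pathway. Type I interferon genes had a median of 0.30 and 1 of 13 called, Trim30a, with 17 and 5 UMIs. That median was -0.42 without cycling cells, where 3 of 11 lay above and 8 below 0, and 0.027 without the highest cell of each gene. MHC class I genes (median -0.059), glycolysis genes (0.056) and immediate early genes (-0.051) lay near the median of all genes, with 0, 0 and 2 calls.

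Cell cycle transcripts lay in a few cells. Of 12 cell cycle genes counted, 0 were called higher and 11 were called lower in the 30 DEP cells, beside 2.63% and 6.88% of all genes, with a median log2 ratio of -2.18. Mki67, a marker of dividing cells, had 7 UMIs in 2 DEP cells and 60 UMIs in 6 control cells, and 25, 22 and 10 of the control UMIs lay in 3 cells. Taking cells with at least 5 UMIs of Mki67 and Top2a summed as cycling, 2 DEP cells and 3 control cells were cycling. Without them 4 cell cycle genes were still counted and 0 were called, and Hmgb2, at -0.95 with them, was at 0.22. Itga4, Itgb1 and Hspa8 stayed lower without them at -2.06, -1.43 and -0.63. Across all genes 48 were then called higher and 135 lower, of which 34 and 95 were among the earlier calls.

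The shares called can be set beside other CD4 populations. The same rule of size in naive-like cells of these libraries called 1.51% of 7261 genes higher and 6.17% lower, against 2.63% and 6.88% in the activated or memory-like cells. In Foxp3 cells it called 2.47% of 2108 genes higher and 5.65% lower. These comparisons share their libraries but not their cells.

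Markers of other cell types were summed per cell beside these results. Without the 5 barcodes the monocyte and macrophage list of 18 genes, which includes Ccr2, summed to 0 to 38 UMIs per cell in DEP and 0 to 31 in control, with Csf1r and C1qa at 0 in both. Neutrophil genes summed to 0 to 6 UMIs in each library, with Cxcr2, Mmp8 and Ngp at 0. The NK list of 12 genes summed to 0 to 8 UMIs in DEP and 0 to 98 in control, and the gamma-delta T list of 10 genes to 0 to 2 and 0 to 26. In both libraries the median sum was 0.0 for the NK and gamma-delta T lists, 3.0 for the monocyte and macrophage list and 1.0 for the neutrophil list. Of the NK list, 1 control cell held 43 UMIs of the granzyme Gzma. The part of such cells in the differences was not tested. Zbtb16, the factor of invariant T cells, was found in 5 DEP and 6 control cells. Leaving out cells with a UMI of Trdc, Zbtb16 or Klrb1c left 21 DEP and 29 control cells, with 49 of 1879 genes called higher and 133 lower. Of these, 19 and 92 were among the 72 higher and 188 lower calls made with those cells.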

How the data were processed

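Single-cell 3′ RNA-seq of sorted CD45+ lung cells gave 1 library per group. Per the submitters' processing notes Cell Ranger 3.1.3 was used with build mm10; the deposited file headers name Cell Ranger 3.1.0. The authors deposited UMI counts per gene and barcode, which were used as raw counts. Barcodes under 500 UMIs, under 200 genes or over 10% mitochondrial UMIs were dropped, leaving 9396 of 10000 in DEP and 9691 of 10312 in control; the libraries held 67030914 and 62047730 UMIs. Doublets were kept, and their removal by a score was an alternative.

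Counts were summed over the cells of a library and given as UMIs per 1000000 (CPM) with exact Poisson intervals. Log2 ratios used a prior count of 0.5 and exact conditional binomial 95% intervals, which cover counting error only. With 1 library per group no test was made: a gene was called when its summed count reached 20, its ratio passed 1.5-fold and the interval excluded 1. Genes named had at least 50 UMIs and were ranked by the bound nearest 0, 12 each way between libraries and 15 each way over naive-like cells. Over naive-like cells the library with the bound nearer to 0 counted, so both libraries had to lie on the same side. Left out were genes of the rule, sex-linked, ribosomal, mitochondrial and haemoglobin genes, genes of immunoglobulins and of receptor V segments, genes under 0.5 times their level in other barcodes, and genes with over 25% of UMIs in 1 cell. Marker, helper and memory genes and members of 40 lists were named besides; a few genes that met these rules are not reported here. Shares were also computed after thinning to 1000 UMIs per cell, leaving out shallower cells.

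The cells and the lists were chosen with earlier results of these data known. The exclusion of barcodes with 10 or more macrophage UMIs on both sides, the S100a4 and Ccl5 classes and 15 other settings were chosen after seeing the data, beside 17 settings listed earlier. The gene calculations were tested on simulated data. Python 3.11.15, numpy 2.4.6, scipy 1.17.1, pandas 2.3.3, scikit-learn 1.9.0, matplotlib 3.10.9 and edgeR 4.0.16 (TMM factors only) were used.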

Additional observations from a re-analysis of the deposited data

How the results depend on the processing

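The ratio of shares of activated or memory-like cells, 0.95 in DEP over control, moved by less than its interval under each alternative run. For all 35 DEP and 38 control cells, the 327 genes called higher became 207 with regulatory genes at 0, 108 without doublet scores, 84 without cells over 3 times the median UMIs, 72 without macrophage RNA, 48 without macrophage RNA and cycling cells, 68 with the rule applied after thinning, 73 and 533 at minimum counts of 100 and 1, and 189 without the highest barcode of each gene. The 313 called lower became 185, 203, 157, 188, 135, 95, 69 and 497 under the same settings in that order, the last excepted, and 490 with no limit on Lef1 and Igfbp4. The direction turned under the thinned rule for Ccl5 (0.29), Gata3 (0.20), Cd44 (-0.85), Lgals3 (-0.20), Fth1 (-0.26), Lamp1 (-1.15), Ms4a4b (0.24), Samhd1 (0.028), Zyx (0.20) and Tnfrsf1b (0.11), and for Hspa8 (0.27), which was not called with all 35 DEP cells. It turned without macrophage RNA for Lgals3 (-0.56, and -0.60 also without cycling cells) and Lamp1 (-0.29 and -0.18). It turned for S1pr1 (0.52) with regulatory genes at 0, and for Ptms with no limit on Lef1 and Igfbp4 (-0.24), without cells over 3 times the median UMIs (-0.07) and without macrophage RNA and cycling cells (-0.60). Fewer genes are counted at a higher minimum and in fewer cells; otherwise the cause was not tested. Leaving out cells without receptor constant chains removed 0 cells and so changed nothing. No paired analysis was possible because each group held 1 library. Depth limited detection: with 3 UMIs as the floor, levels under 18.8 CPM in the 30 DEP cells and 14.2 CPM in the 38 control cells were not detectable.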
